A study of Homo sapiens with 6 samples.

Results

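The nuclear genes for subunits of the mitochondrial respiratory chain were described across 6 arrays of PC3 cells, an established line of human prostate cancer cells derived from bone metastasis. Members were all probe sets annotated to a single gene whose symbol is that of a subunit of complex I (NDUFA, NDUFB, NDUFC, NDUFS and NDUFV genes), complex II (SDH genes), complex III (UQCR genes and CYC1), complex IV (COX4 to COX8 genes) or complex V, the ATP synthase (ATP5 genes). This name rule found 99 of 22277 probe sets and 66 of 11963 genes: 27 genes of complex I, 3 of complex II, 7 of complex III, 12 of complex IV and 17 of complex V. The last 17 included ATP5MC2P1, a pseudogene, and ATP5IF1, an inhibitor of the ATP synthase rather than a subunit. A further 6 probe sets annotated to a subunit gene together with another gene were not used.

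The arrays labelled control (replicates 1 to 3) carry a wildtype genotype label and a source label of vector only; those labelled PSMA (replicates 4 to 6) are PC3 cells labelled as overexpressing PSMA, the prostate-specific membrane antigen encoded by FOLH1. Per the labels, both were grown in RPMI, and the cells received the pLNCX-PSMA plasmid or its empty vector (3 µg of plasmid DNA with FUGENE 6), recovered for 72 h and were then selected with puromycin. Whether either population was a pool or a clone is not given in the sources used here. Nothing in the labels says that the replicates were separate cultures, and the p-values here reflect no more than the scatter of these samples, which may be technical.

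The respiratory chain passes electrons from NADH (complex I) and succinate (complex II) through ubiquinone, complex III and cytochrome c to oxygen at complex IV, and complexes I, III and IV pump protons across the inner mitochondrial membrane. Complex V uses the proton gradient to make ATP. Most subunits are encoded in the nucleus and imported, and all complexes but II also hold subunits encoded in mitochondrial DNA, for which the annotation used named no probe set.

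The signal on the FOLH1 probe sets goes against the labels. The brightest FOLH1 probe set, shared with the paralog FOLH1B, read 477, 417 and 548 under the control label and 15.1, 8.58 and 13.7 under the PSMA label, with all 3 controls above. The probe set annotated to FOLH1 alone averaged 60.5 and 28.1 (n = 3). Both passed the filter on dim probe sets, an intensity above 52.5 on 3 or more arrays, through the arrays labelled control alone, so no fold is given. Every direction given for a member follows the labels as deposited, and "higher" or "rose" means higher on the arrays labelled PSMA. All 5 markers listed as present in PC3 (KRT8, KRT18, EPCAM, CDH1 and VIM) passed that filter. KLK3, KLK2 and TMPRSS2, listed as low, did not, and neither did any of 5 leucocyte markers; of the 7 endothelial and fibroblast markers PECAM1 and COL1A1 passed, with no call. The 5 PC3 markers summed to 17059 to 17584 with the control label and 14717 to 15148 with the PSMA label, the keratins, EPCAM and CDH1 being lower (log2 differences -0.40 to -0.31) and VIM higher (0.30). The leucocyte markers summed to 57.2 to 64.6 and 62.3 to 65.7, the endothelial markers to 70.0 to 84.6 and 78.8 to 91.4, and the fibroblast markers to 157 to 164 and 137 to 143. The 3'/5' ratio of GAPDH was 1.22 to 1.34 and 1.28 to 1.45, and the 28S rRNA signal (its middle probe set) was 1460 to 1570 and 670.5 to 679. The part of these measures in the results on members was not tested.

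Intensities are in arbitrary units, 1 value per probe set and array, and each gene is given by its brightest single-gene probe set past the filter. Of the 66 members 63 passed the filter. The 3 that did not were the muscle and heart isoforms COX6A2 and COX7A1 and the pseudogene ATP5MC2P1. COX6A2 read 15.8, 15.8 and 17.6 under the control label and 17.6, 18.0 and 16.3 under the PSMA label, and COX7A1 read 7.63, 7.03 and 8.72 and 7.35, 6.09 and 6.26. The 2 isoforms thus gave overlapping, dim values under both labels, while the ubiquitous isoforms COX6A1 and COX7A2 were well past the filter. The tested members were measured closely: the SD within a group had a median of 0.0409 and a maximum of 0.0855 on the log2 scale.

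Most subunit genes differed little between the labels, and more of them rose than fell. On arrays labelled PSMA, 27 of 63 subunit genes rose (42.9%), 11 fell (17.5%) and the remaining 25 missed the threshold (limma, adjusted p under 0.05 over all 7035 genes). Among all tested genes 30.1% rose and 33.5% fell, 63.6% in all, against 60.3% of the members. The median log2 difference was 0.06 over the members and -0.01 over all tested genes, and the median size of the difference was 0.16 and 0.22. A difference of 1.2-fold or more was seen in 15 members (23.8%, against 41.9% of all tested genes) and one of 1.5-fold or more in 4 (6.35%, against 13.8%), and 0 members reached 2-fold. The 3 values of each label did not overlap in 47 members (74.6%, against 69.5% of all tested genes). When the limma test was set against a minimum fold of 1.2, it called 7 members higher (NDUFS4, NDUFA10, NDUFB1, SDHC, UQCRC1, ATP5F1A and ATP5MC1) and 0 lower (2 lower at an unadjusted p under 0.05), 11.1% in all, against 11.7% higher, 12.2% lower and 23.9% in all among all genes. Leaving out PSMA replicate 5 moved the number of lower members from 11 to 7 and that of higher members from 27 to 25, and keeping dim probe sets also gave 7 lower.

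**Figure D1:**
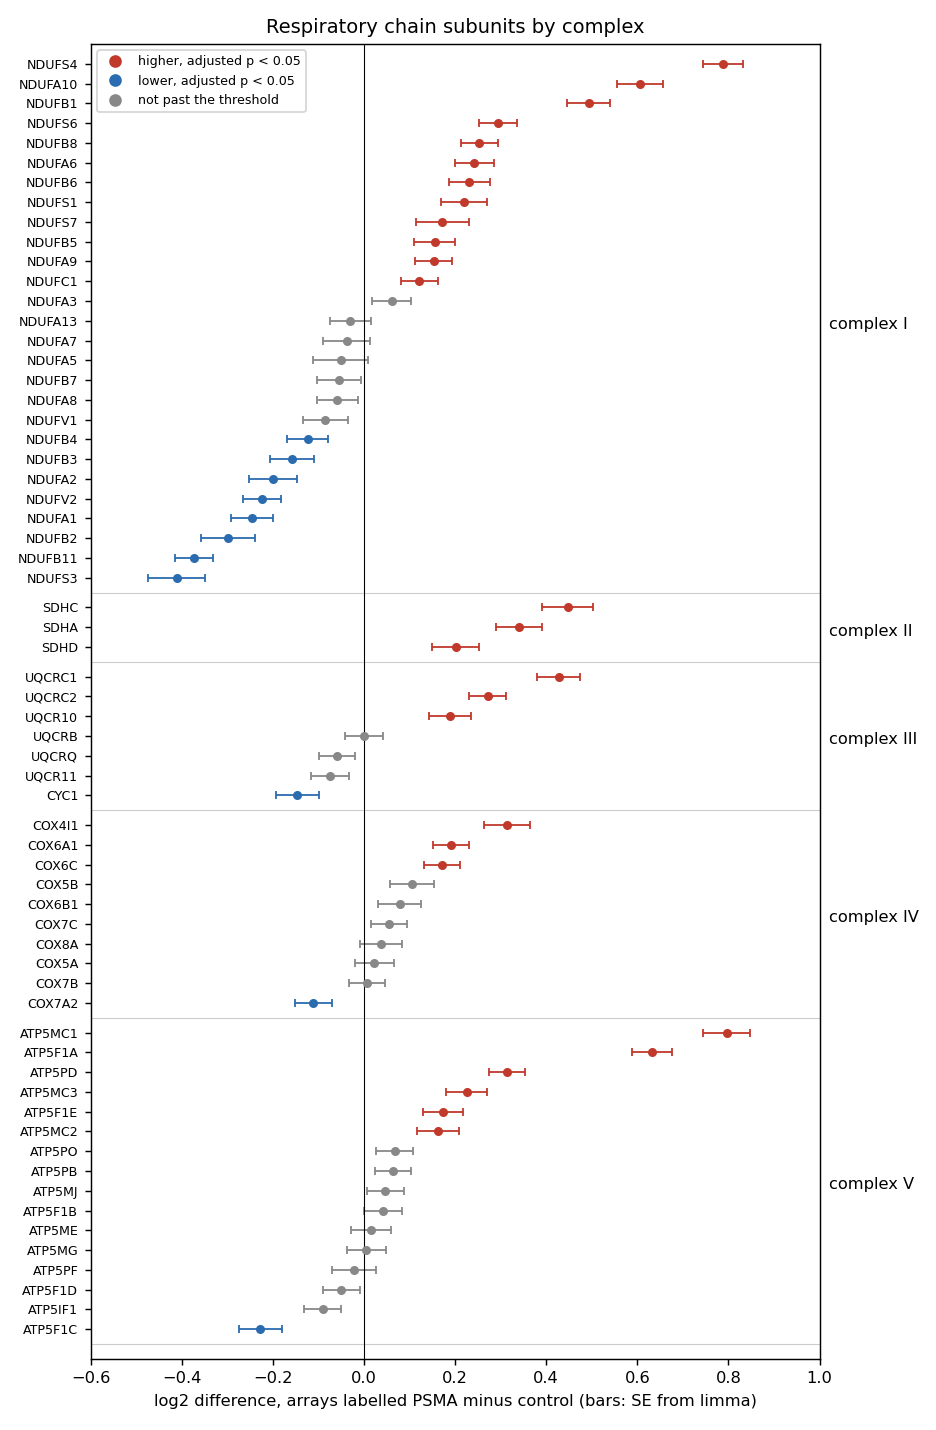
Log2 difference (arrays labelled PSMA minus arrays labelled control, 3 arrays each) of the 63 tested respiratory chain genes, grouped by complex, with SE from limma as bars and colour by call. Complex I spreads from -0.41 (NDUFS3) to 0.79 (NDUFS4), all 3 complex II genes lie above 0, and 2 of the complex V genes (ATP5MC1 and ATP5F1A) stand above the rest of that complex.

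Complex I, the NADH dehydrogenase, was split. Of its 27 genes 12 rose, 8 fell and 7 did not pass, and the median log2 difference was -0.03. The shares were 44.4% higher and 29.6% lower, against 30.1% and 33.5% of all tested genes. The largest rise was in NDUFS4, an accessory subunit of the peripheral, NADH-oxidising arm. It read 314, 329 and 311 on arrays labelled control and 544, 560.4 and 543 on arrays labelled PSMA. The labels did not overlap, and the difference was 1.73-fold (log2 difference 0.79, SE 0.0435, limma adjusted p = 1.36e-06). NDUFA10, an accessory subunit of the membrane arm, read 707, 670.5 and 732 against 1024, 1097 and 1089, all 3 arrays labelled PSMA being higher (1.52-fold, limma adjusted p = 1.45e-05). NDUFB1, a small membrane-arm subunit, read 2070.0, 2024 and 2179 against 2917, 3043 and 2868, again with no overlap (1.41-fold, limma adjusted p = 3.18e-05). The other 9 that rose had log2 differences of 0.12 to 0.29.

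The largest decrease in complex I was in NDUFS3, a core subunit of the arm that hands electrons to ubiquinone. It read 1171, 1141 and 1326 on arrays labelled control and 920.0, 924 and 884 on arrays labelled PSMA, a log2 difference of -0.41 (SE 0.0616, limma adjusted p = 0.000439). NDUFB11, an X-linked membrane-arm subunit, read 2238, 2195 and 2319 against 1749, 1735 and 1729, with the arrays labelled PSMA close together and below all controls (log2 difference -0.37). NDUFB2, another membrane-arm subunit, read 4078, 3987 and 4432 against 3554, 3413 and 3188 (log2 difference -0.30, limma adjusted p = 0.00212), with no overlap. The other 5 that fell had log2 differences of -0.25 to -0.12.

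The core subunits of complex I, among them those that carry its flavin and iron-sulphur centres, did not move as a block. Of the 5 core genes measured by a single-gene probe set, NDUFS1 (log2 difference 0.22) and NDUFS7 (0.17) rose, NDUFS3 and NDUFV2 (-0.22) fell, and NDUFV1 (-0.09, limma adjusted p = 0.164) did not pass. NDUFV1 and NDUFV2 together bind NADH and pass on its first electrons. NDUFS7 read 476, 436 and 492 against 527, 548 and 505, with no overlap but a narrow gap. Its call was lost without control replicate 2 (limma adjusted p = 0.0941), PSMA replicate 4 (0.0636) or PSMA replicate 5 (0.0989), and when dim probe sets were kept (0.0725). Of the 22 accessory genes 10 rose, 6 fell and 6 did not pass. The NDUFB genes, which sit in the membrane arm, were evenly split, with 4 of 9 higher and 4 lower. The shares higher and lower were 40.0% and 40.0% of core, 45.5% and 27.3% of accessory and 44.4% and 44.4% of NDUFB genes. All tested genes were themselves split, with 30.1% higher and 33.5% lower.

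**Figure D2:**
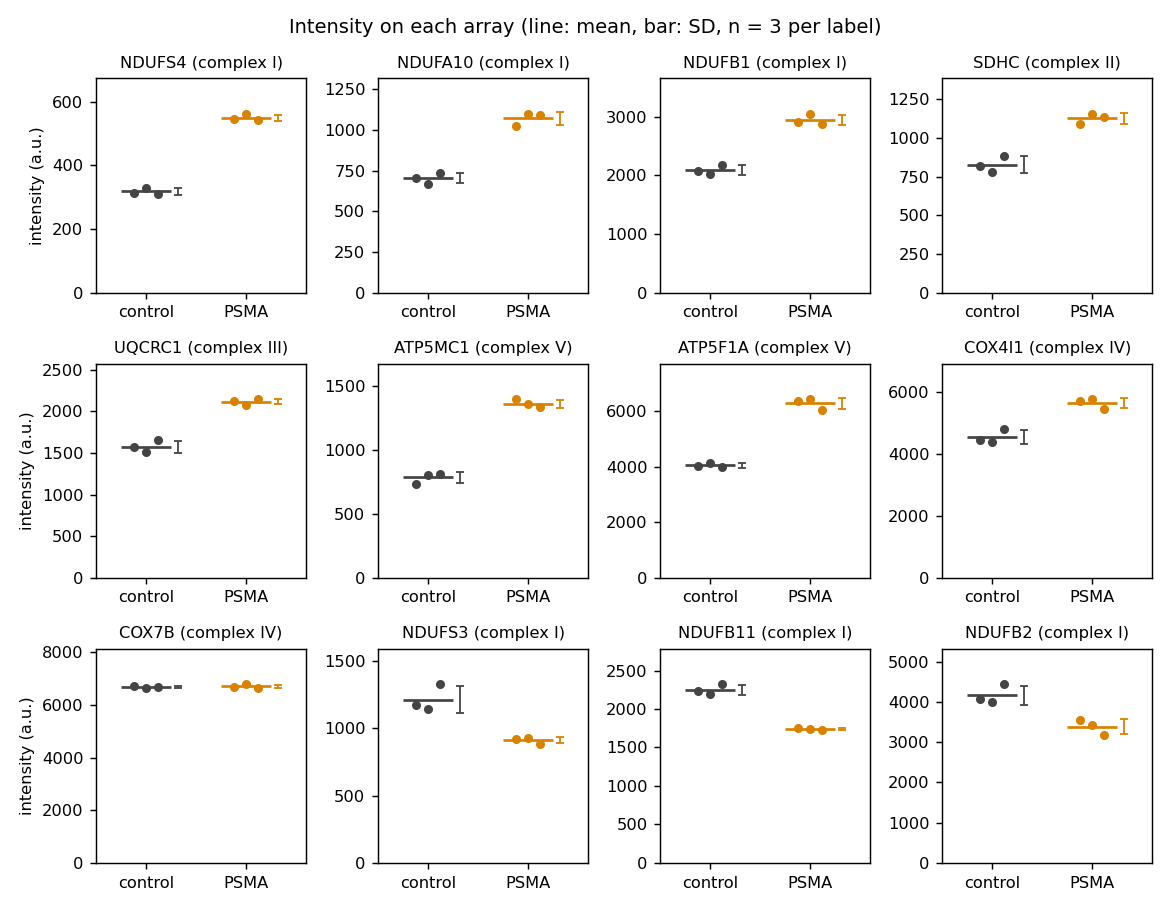
Intensity (arbitrary units, linear axis from 0) on each of the 3 arrays labelled control and 3 labelled PSMA for 12 members, with the mean as a line and the SD as a bar. The labels do not overlap in any panel but that of COX7B, which lies between 6637 and 6776 on all 6 arrays.

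Complex II, succinate dehydrogenase, also part of the citric acid cycle, rose in all 3 of its measured genes, with a median log2 difference of 0.34. Among all tested genes 30.1% rose. SDHB was not analysed here. SDHC, which anchors the enzyme in the membrane, read 819, 778 and 885 under the control label and 1088, 1154 and 1137 under the PSMA label, with no overlap (1.36-fold, SE 0.0563 on the log2 scale, limma adjusted p = 0.000158). All 4 of its probe sets rose, by 0.35 to 0.45 on the log2 scale, the dimmest of them with overlap. SDHA, the flavoprotein that oxidises succinate, read 878, 954 and 949 against 1179, 1209.9 and 1132, every array labelled PSMA being higher (1.27-fold, limma adjusted p = 0.000417). SDHD, the other membrane anchor, read 1912, 1908 and 1852 against 2094, 2113 and 2322, a smaller step (1.15-fold, limma adjusted p = 0.00831) with one array labelled PSMA above the other two. The SDHA probe set and all 4 of SDHC carry names ending in _x_at or _s_at, which mark probes that may bind several transcripts, and relatives or pseudogene copies of these genes cannot be told apart on them. Names with these endings belong to the probe sets used for 37 of the 63 tested members, NDUFB1, NDUFB11, COX4I1 and ATP5F1A among them.

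Complex III, which takes electrons from ubiquinol to cytochrome c, rose in 3 of 7 genes and fell in 1. The shares were 42.9% higher and 14.3% lower, against 30.1% and 33.5% of all tested genes. UQCRC1, a core protein, read 1567, 1509 and 1650.2 against 2128, 2079 and 2145, with no overlap (1.34-fold, SE 0.0471 on the log2 scale, limma adjusted p = 7.26e-05). UQCRC2, the other core protein, read 1291, 1274 and 1272 against 1552, 1509 and 1570.2 (1.21-fold), and both of its probe sets rose. The small subunit UQCR10 rose by 0.19 on the log2 scale. CYC1, the haem protein that reduces cytochrome c, read 3487, 3441 and 3731 against 3278, 3160.3 and 3184, lower on every array labelled PSMA (log2 difference -0.15, limma adjusted p = 0.0233). That call was lost without control replicate 3 (limma adjusted p = 0.0509), PSMA replicate 5 (0.0771) or PSMA replicate 6 (0.0594), and when dim probe sets were kept (0.0654). UQCRB read 6677, 6879 and 6641 against 6871, 6561 and 6771, values that overlap throughout, and UQCRQ (-0.06) and UQCR11 (-0.07) did not pass.

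Complex IV, cytochrome c oxidase, which passes electrons to oxygen, showed small differences. Of its 10 tested genes 3 rose, 1 fell and 6 did not pass. The shares were 30.0% higher and 10.0% lower, against 30.1% and 33.5% of all tested genes. The median size of the log2 difference was 0.09 in complex IV and 0.08 in complex V, against 0.20 in complex I and 0.22 over all tested genes. COX4I1, the ubiquitous form of a subunit that regulates the enzyme, read 4450.0, 4398 and 4821 against 5725, 5779.8 and 5469.8, with no overlap (1.24-fold, limma adjusted p = 0.000707). COX6A1 read 6278, 6242 and 6443 against 7255, 7163 and 7228, and COX6C read 7001, 6924 and 7137 against 7959, 7881 and 7877; both were higher on every array labelled PSMA, by 1.14-fold and 1.13-fold. COX7A2 read 4500.2, 4470.1 and 4530.4 against 4234, 4049.9 and 4211 (log2 difference -0.11, limma adjusted p = 0.0396), and its call was lost when any of the 6 arrays was left out: without control replicate 1 (limma adjusted p = 0.0924), control replicate 2 (0.0776), control replicate 3 (0.0626), PSMA replicate 4 (0.0529), PSMA replicate 5 (0.148) or PSMA replicate 6 (0.0644). COX7B, COX5A, COX8A, COX7C, COX6B1 and COX5B had log2 differences of 0.01 to 0.10 and did not pass. COXFA4, formerly NDUFA4, is a complex IV subunit that the name rule does not take in. It averaged 4652 ± 97.2 and 4802 ± 26.0 (SD, n = 3) under the control and PSMA labels and did not pass (limma adjusted p = 0.365).

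Complex V, the ATP synthase, rose in 6 of 16 tested genes and fell in 1. The shares were 37.5% higher and 6.25% lower, against 30.1% and 33.5% of all tested genes. The 3 genes for the c subunit, whose ring turns with the proton flow, all rose, and to unequal extents. ATP5MC1 read 738, 809 and 813 on arrays labelled control and 1399, 1360.3 and 1335 on arrays labelled PSMA, with no overlap and, beside NDUFS4, the largest rise among the members (1.74-fold, SE 0.0512 on the log2 scale, limma adjusted p = 3.24e-06). ATP5MC3 read 4301, 4302 and 4631 against 5153, 5148 and 5159 (1.17-fold), and ATP5MC2 read 1599.5, 1733 and 1731 against 1872, 1872 and 1918 (1.12-fold). In neither gene did the labels overlap, but the ATP5MC2 call was lost without control replicate 1 (limma adjusted p = 0.0596). The brightest probe set of each of these 3 genes has a name ending in _s_at, and related copies such as ATP5MC2P1 exist.

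The catalytic head of the ATP synthase was divided. ATP5F1A, the alpha subunit, read 4029, 4149 and 3981 against 6376, 6431 and 6041, with no overlap (1.55-fold, SE 0.0447 on the log2 scale, limma adjusted p = 5.44e-06). ATP5F1B, the beta subunit that makes ATP and pairs with alpha in equal number, read 4801, 4684 and 4743 against 4745, 5021 and 4873, with overlap (log2 difference 0.04, limma adjusted p = 0.423). ATP5F1C, the rotating gamma subunit, read 2899, 3022 and 3126 against 2635, 2599 and 2486, lower on every array labelled PSMA (log2 difference -0.23, limma adjusted p = 0.00277), and all 3 of its tested probe sets fell. The names of all 3 end in _x_at. ATP5F1E, the epsilon subunit, rose by 0.17 on the log2 scale, and ATP5F1D, the delta subunit, had a difference of -0.05 that did not pass. Among the 4 peripheral stalk genes ATP5PD rose (1.24-fold, limma adjusted p = 0.000149), and ATP5PB, ATP5PO and ATP5PF did not pass. The membrane accessory genes ATP5ME, ATP5MG and ATP5MJ did not pass, nor did the inhibitor ATP5IF1 (-0.09, limma adjusted p = 0.0779).

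More than 1 probe set passed the filter for 16 member genes. The test over probe sets called 60.6% of 11303 probe sets (28.2% higher, 32.4% lower) and 58.0% of the 88 tested member probe sets (36 higher, 15 lower). The labels did not overlap in 60 of the 88, against 67.3% of all tested probe sets. In 8 of the 16 genes all probe sets were called in 1 direction: ATP5F1C and NDUFB2 lower, and ATP5MC3, COX4I1, NDUFA6, NDUFB8, SDHC and UQCRC2 higher. In 0 of them were probe sets called in opposite directions. Disagreement was seen in complex V. For ATP5MJ one probe set rose by 0.46 on the log2 scale (limma adjusted p = 2.6e-05) while the brighter one had a difference of 0.05. For ATP5MG one fell (-0.27, limma adjusted p = 0.000851) while the other 3 lay at 0.00 to 0.03. COX5B was the other gene with probe sets on both sides of 0, from -0.09 to 0.10, with no call.

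**Figure D3:**
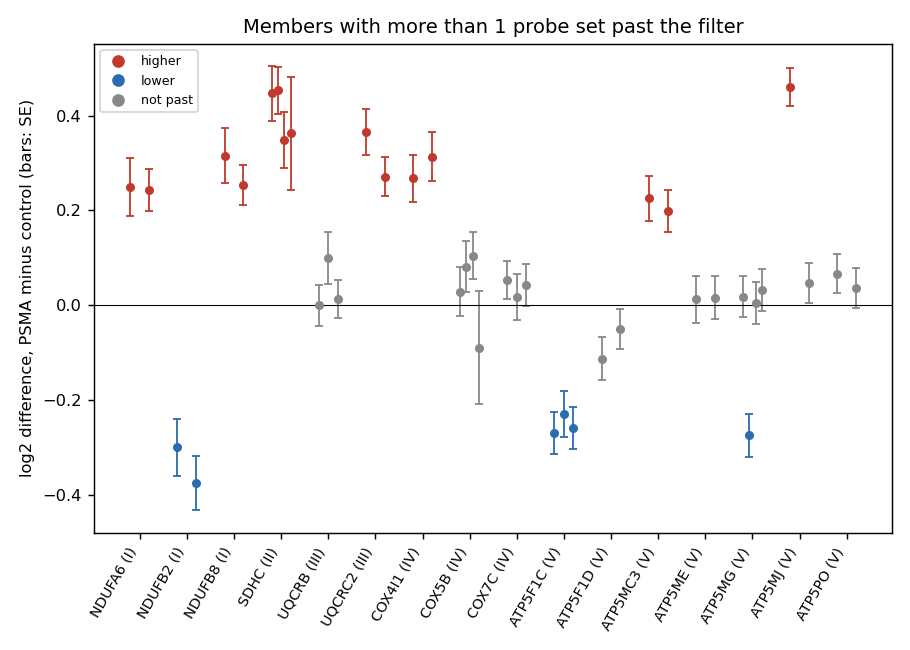
Log2 difference (PSMA minus control, bars SE from limma) of every tested probe set of the 16 member genes with more than 1, coloured by call over probe sets; the complex is in brackets. Probe sets of a gene lie together for most genes, and ATP5MG and ATP5MJ each have 1 probe set apart from the others.

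Position along the chromosomes was examined because runs of adjacent genes were already known to differ together on these arrays. For each member, the median log2 difference was taken over the tested non-member genes closest to it on its chromosome, 7 on each side, in the gene order of the RefSeq table (GRCh38.p14). Across the 63 members the difference of a member and that of its neighbours correlated at r = 0.775. Across the other 6970 tested genes with a place in that table the same measure gave r = 0.479. Both are descriptions across genes, which share arrays and, where close together, neighbours. All 11 members that fell had neighbours with a median below 0, as had 77.5% of the other genes that fell, and 17 of the 27 that rose had neighbours with a median above 0, against 66.9% of the other genes that rose. With 3 or 15 neighbours on each side, chosen after seeing the data, r over the members was 0.700 and 0.732, and 10 and 10 of the 11 lower members had neighbours below 0.

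Among the members that stood out, NDUFS4 on chromosome 5 (0.79) had neighbours with a median of 0.64, NDUFA10 on chromosome 2 (0.61) neighbours at 0.57, NDUFB1 on chromosome 14 (0.49) neighbours at 0.43 and ATP5F1A on chromosome 18 (0.63) neighbours at 0.40. In each of these, 11 to 13 of the 14 neighbours passed the threshold as higher. NDUFB11 on the X chromosome (-0.37) had 14 of 14 neighbours called lower, with a median of -0.35, and NDUFB2 on chromosome 7 (-0.30) had 13 lower, with a median of -0.57. CYC1 on chromosome 8 (-0.15) lay among 14 neighbours that all fell, with a median of -0.41. Other members moved apart from their surroundings: ATP5MC1 on chromosome 17 (0.80) had neighbours at 0.13, SDHC on chromosome 1 (0.45) at 0.05, SDHA on chromosome 5 (0.34) at 0.02, from 7 neighbours, and COX4I1 on chromosome 16 (0.31) at 0.04. NDUFB6 on chromosome 9 rose by 0.23 among neighbours with a median of -0.20.

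**Figure D4:**
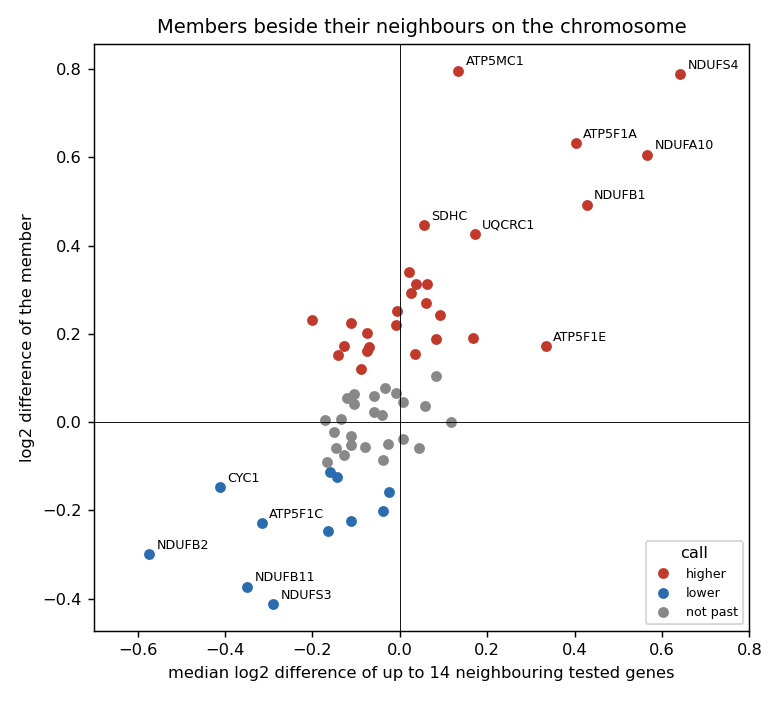
Log2 difference of each of the 63 tested members against the median log2 difference of its neighbouring tested genes (up to 7 on each side, members left out), coloured by call. NDUFS4, NDUFA10, NDUFB1 and ATP5F1A lie at the upper right with raised neighbours, all members that fell lie to the left of 0, and ATP5MC1 and SDHC are high with neighbours near 0.

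Promoters of respiratory chain genes are known to bind the nuclear respiratory factor NRF1, the ETS factor GABPA (also called NRF2) and YY1. RefSeq promoters (GRCh38.p14, 250 bases before to 50 after the gene start) were found for 56 of the 66 members and searched on both strands for the cores GCGCATG (NRF1), CCGGAAG (ETS factors) and AGATGGC (YY1). The NRF1 core was present in 13 of the 56 (23.2%), against 8.04% of 5931 promoters of tested genes and 4.67% of all 27305 promoters. The ETS core was present in 17 (30.4%), against 20.7% and 10.7%, and the YY1 core in 11 (19.6%), against 8.35% and 5.61%. At least one of them was present in 13 of 23 promoters of members that rose, 4 of 10 of members that fell and 15 of 22 of members that did not pass. The NRF1 core was in 7, 2 and 4 of these promoters, the ETS core in 5, 2 and 10, and the YY1 core in 6, 0 and 5. A few promoters, picked by hand after their values were seen, illustrate NRF1 and ETS cores upstream of members that rose and of members that fell. Each gives the 250 bases before the start, 5′ to 3′ on the gene's strand, with the matched cores in capitals, on either strand; a match is a description of letters, not a binding site. COX6A1 (chr12:120437863-120438112, plus strand) and SDHD (chr11:112086623-112086872, plus strand) rose and hold both NRF1 and ETS cores; SDHD also has a YY1 core after the start, not shown. ATP5F1C (chr10:7787927-7788176, plus strand) fell and holds the NRF1 core on both strands, overlapping as in SDHD, and NDUFS3 (chr11:47578824-47579073, plus strand) fell and holds the ETS core in 2 places.
COX6A1: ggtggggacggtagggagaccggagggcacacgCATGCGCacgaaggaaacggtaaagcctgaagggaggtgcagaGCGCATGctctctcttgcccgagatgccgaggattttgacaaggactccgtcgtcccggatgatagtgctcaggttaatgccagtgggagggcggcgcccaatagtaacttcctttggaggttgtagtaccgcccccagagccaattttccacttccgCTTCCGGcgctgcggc
SDHD: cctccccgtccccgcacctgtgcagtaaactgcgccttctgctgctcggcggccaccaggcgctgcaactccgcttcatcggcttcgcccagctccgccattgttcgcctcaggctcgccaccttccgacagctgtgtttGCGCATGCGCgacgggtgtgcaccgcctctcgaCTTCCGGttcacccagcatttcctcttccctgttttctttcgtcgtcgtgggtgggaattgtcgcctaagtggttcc
ATP5F1C: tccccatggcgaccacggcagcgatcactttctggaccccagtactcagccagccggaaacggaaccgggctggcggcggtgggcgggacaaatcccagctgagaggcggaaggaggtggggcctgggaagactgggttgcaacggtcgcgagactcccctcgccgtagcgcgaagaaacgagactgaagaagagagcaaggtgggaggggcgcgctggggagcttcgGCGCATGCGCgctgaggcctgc
NDUFS3: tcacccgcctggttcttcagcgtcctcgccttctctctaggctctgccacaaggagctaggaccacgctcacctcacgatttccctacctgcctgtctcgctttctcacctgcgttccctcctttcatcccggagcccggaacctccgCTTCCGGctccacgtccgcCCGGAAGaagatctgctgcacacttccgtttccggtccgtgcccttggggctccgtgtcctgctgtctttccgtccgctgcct

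The genes of these regulators moved in both directions. NRF1 averaged 80.7 ± 3.17 under the control label and 100.5 ± 5.91 under the PSMA label (SD, n = 3; log2 difference 0.32, limma adjusted p = 0.00114). TFAM, which packages and transcribes mitochondrial DNA, averaged 1219 ± 81.7 and 1619 ± 124 (0.41). POLG, the mitochondrial DNA polymerase, fell most (-0.44), followed by SSBP1, which binds single-stranded mitochondrial DNA (-0.33). Of those chosen after their values were seen, GABPA fell (-0.29), as did ESRRA, a nuclear receptor that drives respiratory genes (-0.30). YY1 did not pass (-0.10, limma adjusted p = 0.0571). In all, 5 of 20 tested biogenesis regulators and mitochondrial DNA maintenance genes rose and 5 fell. Both shares were below those of all tested genes, of which 30.1% rose and 33.5% fell.

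Genes that assemble the respiratory complexes also moved in both directions, some of them by more than any subunit. Of 27 tested assembly factors 8 rose (29.6%) and 10 fell (37.0%), near the 30.1% and 33.5% of all tested genes. A decrease of 2-fold or more was seen in 4 of the 27. Among these 4 is ATPAF2, which passed the filter through the arrays labelled control alone. A difference of that size was seen in 0 of 63 subunit genes and 4.41% of all tested genes. TTC19, a complex III assembly factor, averaged 2807 ± 26.3 and 648 ± 26.5 under the control and PSMA labels (SD, n = 3; log2 difference -2.12, limma adjusted p = 1.26e-08). COX10, which takes part in making the haem of complex IV, had a log2 difference of -1.87. ATPAF2, which assembles the head of the ATP synthase, averaged 129 ± 9.60 under the control label and 30.5 ± 3.18 under the PSMA label (SD, n = 3), the latter below the filter, so that the size of its decrease is uncertain. These 3 genes lie on chromosome 17, with neighbours at a median of -1.85 for TTC19, -1.47 for COX10 and -1.75 for ATPAF2. SDHAF3, a complex II assembly factor, had a difference of -1.49 with neighbours at -0.09, while the 3 complex II subunits rose. UQCC1, a complex III assembly factor, rose by 0.77 and NUBPL, which delivers iron-sulphur centres to complex I, by 0.47.

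Other mitochondrial gene lists also held genes of both directions, as did all tested genes (30.1% higher and 33.5% lower). Mitochondrial ribosomal proteins, which make the subunits encoded in mitochondrial DNA, rose in 17 of 47 and fell in 9 (median 0.06); MRPS31 (0.91) and MRPS14 (0.60) rose most, and MRPL15 (-0.72) and MRPL17 (-0.71) fell most. Of the 21 tested genes of the citric acid cycle and pyruvate dehydrogenase 8 rose and 5 fell; SUCLA2, a subunit of succinyl-CoA synthetase, averaged 511 ± 30.3 and 1069.8 ± 60.1 (SD, n = 3) with neighbours at a median of 0.96, and OGDH rose by 0.65, while PDHX (-0.76) and DLAT (-0.26) fell. Of 10 genes listed under coenzyme Q synthesis COQ8A rose (0.36) and 4 fell, COQ10B (-0.76) and COQ2 (-0.58) most. COQ10B binds coenzyme Q rather than making it. Mitochondrial import genes rose in 5 of 15 and fell in 7, with TOMM34 (0.56) and TIMM17A (0.52) highest and TOMM20 (-0.81) and TIMM8A (-0.56) lowest. Of 15 carriers and pores 3 rose, MPC1 (0.23) and SLC25A12 (0.20) most, and 6 fell, SLC25A10 (-0.65) and SLC25A13 (-0.44) most. Of 15 genes listed as respiratory but outside the name rule 3 rose and 4 fell, NNT (-0.91) and HIGD2A (-0.41) most. The 3 that rose were AOX1 (0.13), UCP2 and DHODH. AOX1 encodes aldehyde oxidase and is not a gene of the respiratory chain. UCP2 rose by 0.22, and DHODH averaged 43.6 under the control label, below the filter, and 60.4 under the PSMA label. CYCS, the gene of cytochrome c, averaged 6830 ± 213 and 6527 ± 205 and did not pass (limma adjusted p = 0.242).

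**Figure D5:**
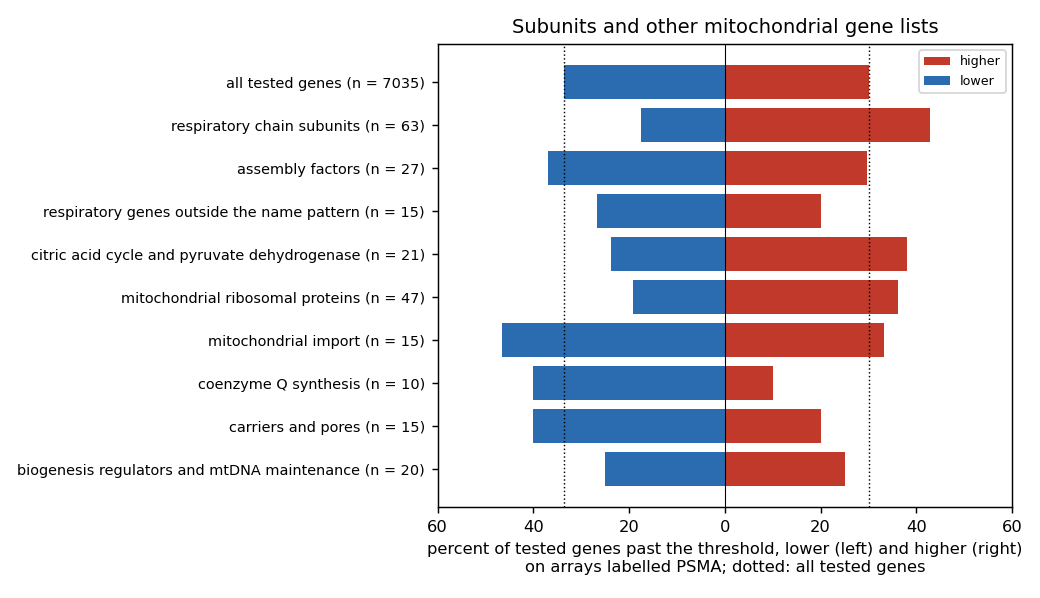
Percent of tested genes past the limma threshold, lower to the left and higher to the right on arrays labelled PSMA, for all tested genes, the respiratory chain subunits and 8 other mitochondrial gene lists, with dotted lines at the 30.1% higher and 33.5% lower of all tested genes. Subunits (42.9% and 17.5%) and mitochondrial ribosomal proteins (36.2% and 19.1%) have more higher than lower genes, and import genes (33.3% and 46.7%) the reverse.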

How the data were processed

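Total RNA of the 6 PC3 samples was hybridised to Affymetrix arrays as biotin-labelled cRNA, per the labels. The authors deposited intensities already processed; the tool named in the submitters' processing notes is GCRMA; version, scale and array annotation are not given in the sources used here. GCRMA corrects background by probe base composition and compresses low signals towards one another. Values ran from 3.76 to 17455 with array medians of 51.7 to 52.9 and were taken as linear. Arrays of one label correlated at r = 0.9975 to 0.9981 over log2 values and arrays of different labels at 0.9875 to 0.9879, across probe sets. The number of arrays limits the precision.

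Of 22277 probe sets 62 were controls, 19064 had 1 gene symbol, 1043 several and 2108 none here; symbols came from GEO's platform annotation and 0 needed an update through RefSeq. Values were log2-transformed with no pseudocount. Controls and probe sets that exceeded the overall median value (52.5) on fewer than 3 arrays were left out, which left 11303 probe sets and 7035 genes, each by its brightest single-gene probe set. The model was limma's (version 3.58.1 under R 4.3.3; lmFit and eBayes, with treat for a minimum fold of 1.2), two-sided, with Benjamini-Hochberg adjustment and a threshold of 0.05; all adjusted p-values are from limma, and the fit was tested on simulated data. Summaries came from pandas 2.3.3 and numpy 2.4.6 under Python 3.11.15, figures from matplotlib 3.10.9.

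Members and lists were chosen with earlier results of these data known. Named in each complex were the 3 largest increases and decreases past the threshold without overlap, isoform pairs, SDH, CYC1, core complex I, c-subunit and F1 genes; in each list the 2 largest each way. Other genes named were chosen after their values were seen. Alternatives covered the filter, normalization, pseudocount, a floor, probe set choice, variance model and each array left out.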

Additional observations from a re-analysis of the deposited data

How the results depend on the processing

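The numbers of members higher (27), lower (11) and changed (38) stayed within 1.5 times, and 0 members changed from one called direction to the other, under quantile normalization, centring each array on its median, a pseudocount of 16, a floor at the 25th percentile, the median of a gene's probe sets, a filter on the mean and the trended robust variance model. Members lower numbered 7 when dim probe sets were kept, with complex III and complex IV lower at 0. With _s_at and _x_at probe sets left out 36 members could be tested, of which 16 were higher, 7 lower and 23 changed; complex I lower was 4, complex II higher 1 and complex V higher 3, and medians of complexes I to V were 0.060, 0.20, 0.10, 0.017 and 0.12. Fewer genes were tested in that setting, and the part of this in the lower counts was not tested. With treat at 1.2-fold, members higher, lower and changed were 7, 0 and 7; higher in complexes I to V were 3, 1, 1, 0 and 2, and lower were 0 in complexes I, III, IV and V. Over probe sets, complex II higher was 6 and complex V lower 4, and the medians of complexes I, III, IV and V were 0.015, 0.057, 0.048 and 0.034. The trended model gave complex IV higher as 5. Quantile normalization gave medians of -0.0097 for complex I and 0.035 for complex V. Centring gave 0.046 for all members and 0.051 for complex IV, and the median of a gene's probe sets gave 0.049 for complex IV. The causes of these changes were not tested. Leaving out 1 array in turn gave 25 to 27 members higher, 7 to 9 lower (7 without PSMA replicate 5) and 32 to 35 changed. In complex I, 10 to 12 were higher and 6 to 7 lower, with a median of -0.044 to -6.7e-05; in complex II 3 to 3 higher, 0 to 0 lower and 0.30 to 0.37; in complex III 3 to 3 higher, 0 to 1 lower and -0.014 to 0.019; in complex IV 3 to 4 higher, 0 to 0 lower and 0.056 to 0.086; in complex V 5 to 6 higher, 1 to 1 lower and 0.04 to 0.06. Of 33 named members 13 kept their side of the threshold in every alternative that tested them, and 20 lost it with treat. The 13 include NDUFV1, COX7B, COX8A, COX6B1, ATP5F1D and ATP5F1B, which had no call to lose. NDUFA4 could not be counted under complex I, since its probe set now carries the symbol COXFA4. No paired analysis was possible because the labels give the groups different replicate numbers.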
